A study of Rattus norvegicus with 9 samples.

Results

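Rats with cerebral ischemia-reperfusion injury that received Buyang Huanwu Decoction (BHD) were compared with rats that had the injury alone, on m6A epitranscriptomic microarrays of the cortex. The comparison uses 3 BHD and 3 model arrays, 6 of the 9 arrays of the series, chosen by their labels. Model rats were male Sprague Dawley rats of 8 weeks in which a plug inserted through the left carotid artery closed the middle cerebral artery for 2 h before reperfusion, and cortex of the ischemic side was taken on day 7. The BHD rats were male, carried the same model by label and had 7 days of BHD, but their age and the dose and route of BHD were not given in the sources used here. The 3 control arrays, of male rats of 8 weeks operated on without the occlusion, entered the fit for the spread between arrays and give background levels. The arrays of a group are biological replicates by label, and nothing in the labels ties an array to an animal beyond that.

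N6-methyladenosine (m6A) is a common mark inside messenger and long noncoding RNAs. Methyltransferases such as Mettl3 and Mettl14 write it, the demethylases Fto and Alkbh5 remove it, and reader proteins of the Ythdf and Ythdc families bind it and alter the splicing, export, translation or decay of the RNA. An antibody against m6A pulls methylated RNA into an immunoprecipitated fraction (IP) and leaves the rest in the supernatant (Sup). On these arrays IP carried the dye Cy5 and Sup carried Cy3, with no dye swap, so a probe's dye effect stays in its ratio and cancels only between groups. A change of methylated share moves the ratio of the fractions, whereas a change of abundance moves both fractions together. BHD is a Chinese herbal formula built on Astragalus root and given in recovery from stroke.

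The probes named uc. address transcripts from ultraconserved elements, stretches of genome shared without change by human, mouse and rat, and the sign gives the strand. The primers with which the study amplified uc.440- and uc.77- after m6A immunoprecipitation are shown 5′ to 3′, because these transcripts moved in opposite directions in the results that follow and the primers are what identifies them. They are the study's PCR primers and not the array's probes.
uc.440- forward: atgagttacaaccttcacgcag
uc.440- reverse: accagcatttaatttcagccc
uc.77- forward: ttaaaggaagtctgactgctgc
uc.77- reverse: gttctcgccacactctgtttct

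On the 6 arrays the IP channel was well above background at 73.9% to 82.7% of spots and the Sup channel at 64.9% to 72.7%, with no saturated spot. Of 41186 probes for transcripts, 32819 had enough signal to be tested. BHD 3 stood apart from the other arrays. Across probes its total signal, log2(IP + Sup), correlated with that of the other arrays at r of 0.942 to 0.971, while the other pairs lay between 0.977 and 0.994. By the scan times, from which slides were inferred, BHD 3 was alone on its slide and model 1 shared a slide with the controls. Model 2, model 3, BHD 1 and BHD 2 shared another. Counts are therefore also given without BHD 3 and within the shared slide. A probe was called when its fold change was at least 1.5 and its unadjusted limma p was under 0.05, the thresholds of the study, and Benjamini-Hochberg values over all probes tested stand beside the calls. In bulk cortex, fewer cells of a type and less RNA per cell cannot be told apart.

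uc.440- fell with BHD in both fractions. Its total signal was 10.13, 10.34 and 10.73 on the 3 model arrays, 8.29, 8.07 and 7.67 on the 3 BHD arrays, and 9.15 and 9.42 on the 2 control arrays with a value. The groups did not overlap, and every BHD array lay below both controls, while every model array lay above them. The total signal fell by 2.39 on the log2 scale with BHD (SE 0.21), a 5.23-fold difference, with an adjusted limma p of 0.0466. Over 21 alternatives the difference ran from -3.28 to -2.22 and was called each time, but its adjusted p ran from 0.00804 to 0.382 and was under 0.05 in 8 of them.

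The 2 channels of uc.440- moved together. Its IP signal was 9.15, 9.52 and 10.09 in the model and 7.21, 7.09 and 6.66 with BHD, and fell by 2.60 (SE 0.25, limma adjusted p = 0.109). Its Sup signal was 9.10, 9.12 and 9.26 in the model and 7.38, 7.05 and 6.68 with BHD, and fell by 2.12 (SE 0.19, limma adjusted p = 0.0666). The ratio log2(IP/Sup) moved far less. It was 0.06, 0.40 and 0.83 in the model and -0.17, 0.04 and -0.02 with BHD, a difference of -0.48 (SE 0.19, limma adjusted p = 0.309) that missed the fold threshold. The model arrays spread over more than the difference, and model 1 lay just above BHD 2, so the groups did not overlap by a narrow margin. Within the shared slide the ratio difference was -0.68, which was called, and between BHD 3 and model 1 it was -0.08. The total signal differed by -2.35 within the shared slide and by -2.46 between BHD 3 and model 1. An exact permutation test over 6 arrays gave p = 0.1 for the total signal, the smallest value 3 against 3 allows. The probe of the opposite strand, uc.440+, was well above background on 1 of the 6 arrays in IP and on 0 in Sup, and was not tested.

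**Figure D1:**
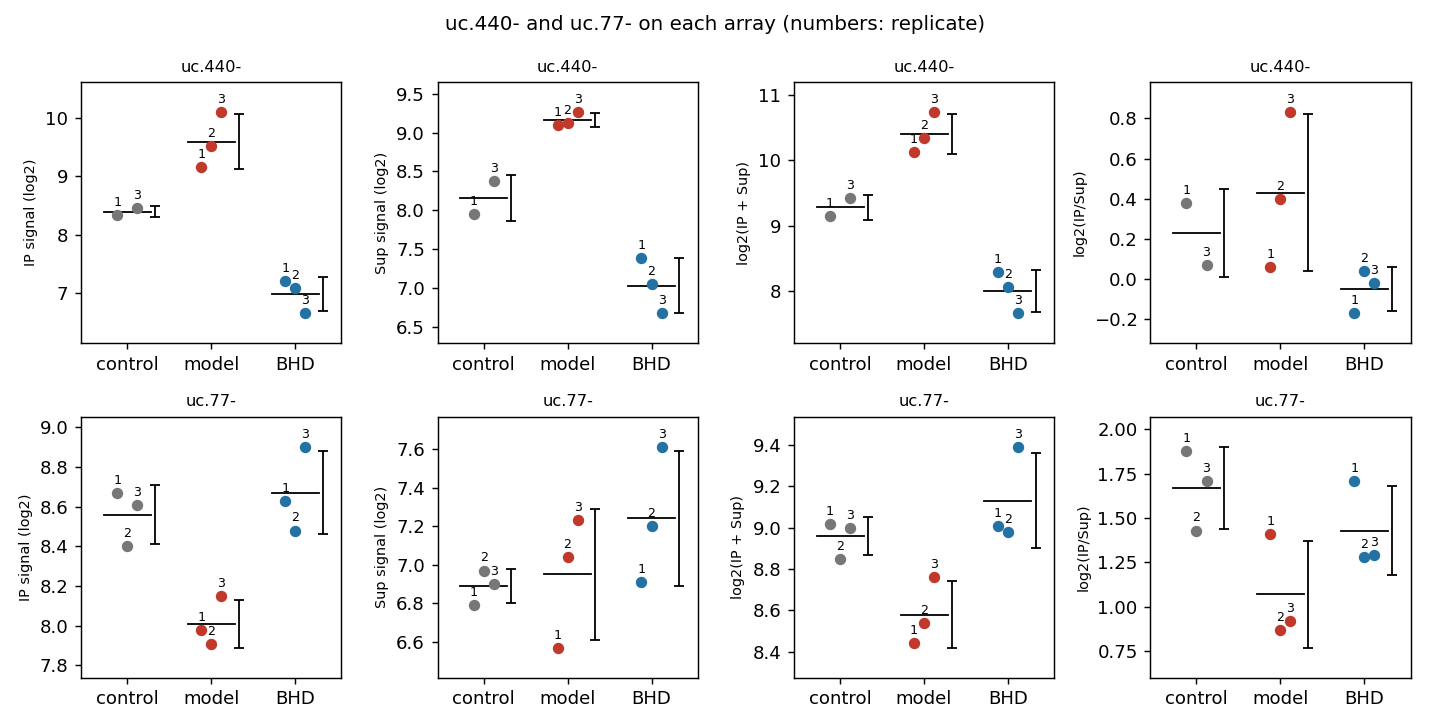
Each point is 1 array, numbered by replicate, with the group mean (line) and SD (bar) of the log2 IP signal, log2 Sup signal, log2(IP + Sup) and log2(IP/Sup) of uc.440- (top) and uc.77- (bottom) in control, model and BHD rats. uc.440- had total signals of 10.40 ± 0.31 in the model and 8.01 ± 0.32 with BHD (SD, n = 3), with a small difference of the ratio, and uc.77- had higher IP signals with BHD while its Sup signals overlapped.

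uc.77- went the other way, in the IP fraction. Its IP signal was 7.98, 7.91 and 8.15 in the model, 8.63, 8.48 and 8.90 with BHD and 8.67, 8.40 and 8.61 in the controls. The BHD arrays lay above every model array and beside the controls, and the rise of 0.65 (SE 0.13) was called with an adjusted limma p of 0.25. It was called in 17 of 21 alternatives, and lost its call within the shared slide, at 0.52, and without BHD 3, at 0.54. In IP the model and BHD arrays did not overlap in 25.7% of all probes with 6 values. The total signal differed by 0.55 (SE 0.13) without overlap and missed the fold threshold. The ratio was 1.41, 0.87 and 0.92 in the model and 1.71, 1.28 and 1.29 with BHD, so the groups overlapped through model 1, and its difference of 0.36 (SE 0.18) was not called. Within the shared slide the ratio differed by 0.60 and was called, while BHD 3 minus model 1 gave -0.12. The Sup signal differed by 0.29 (SE 0.21) with overlapping groups. The opposite strand, uc.77+, was measured on all 6 arrays. Its Sup signal fell by 0.59 (SE 0.23, limma adjusted p = 0.456), which was called though the groups overlapped, while its IP signal differed by -0.02. The ratio of uc.77+ was -1.27, -1.18 and -0.91 in the model and -0.71, -0.63 and -0.31 with BHD. These groups did not overlap, as in 22.2% of all probes with 6 values. The difference of 0.57 (SE 0.18) missed the fold threshold and was called in 7 of 20 alternatives.

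Over the whole array, calls of abundance ran mostly downwards with BHD. Of the 32819 probes, 1177 (3.59%) were called for the total signal, 100 higher (0.305%) and 1077 lower (3.28%). The 1077 lower probes had median differences of -0.73 in IP, -0.85 in Sup and 0.18 in the ratio, and both fractions were called in 511 of them. The 100 higher probes were led by the IP fraction, with medians of 0.91 in IP and 0.35 in Sup, and both fractions were called in 9. After adjustment 7 probes passed 0.05 in the total signal, of which 6 were called, all lower, and the smallest adjusted p was 0.0454. Taken one fraction at a time, 533 probes were higher (1.62%) and 1188 lower (3.62%) in IP, 5.24% in all. In Sup 76 were higher (0.232%) and 1108 lower (3.38%), 3.61% in all. After adjustment 1 probe passed in IP and 3 in Sup. With the spots marked as outliers kept, IP calls were 835 higher and 896 lower, and total calls 214 higher and 816 lower. Such spots made up 0.291% to 1.81% of the model arrays and 0.12% to 0.43% of the BHD arrays.

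Both channels were called in the same direction, with no call of the ratio, in 471 probes (1.44%). Of these, 463 (1.41%) were lower and 8 (0.0244%) higher with BHD. A change of abundance alone would give this pattern, but a ratio that is not called can still differ. The median ratio difference of the 471 was 0.06, and the median of its absolute values 0.16, against a median total difference of -0.88. Leaving out probes with a ratio call keeps the ratio differences small in advance, so these medians only describe the set. Of the tested uc. probes uc.440- was the 1 with this pattern. The same count without BHD 3 was 157, without BHD 1 994, and without model 1, 2 and 3 it was 313, 280 and 266, with more lower than higher in each. The total count was 530 without BHD 3, 2010 without BHD 1 and 719 without model 2. IP calls numbered 919 without BHD 3, 874 without model 2 and 1019 without model 3, and Sup calls numbered 608 without BHD 3 and 2154 without BHD 1. Without BHD 3 the IP calls were 454 higher and 465 lower.

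**Figure D2:**
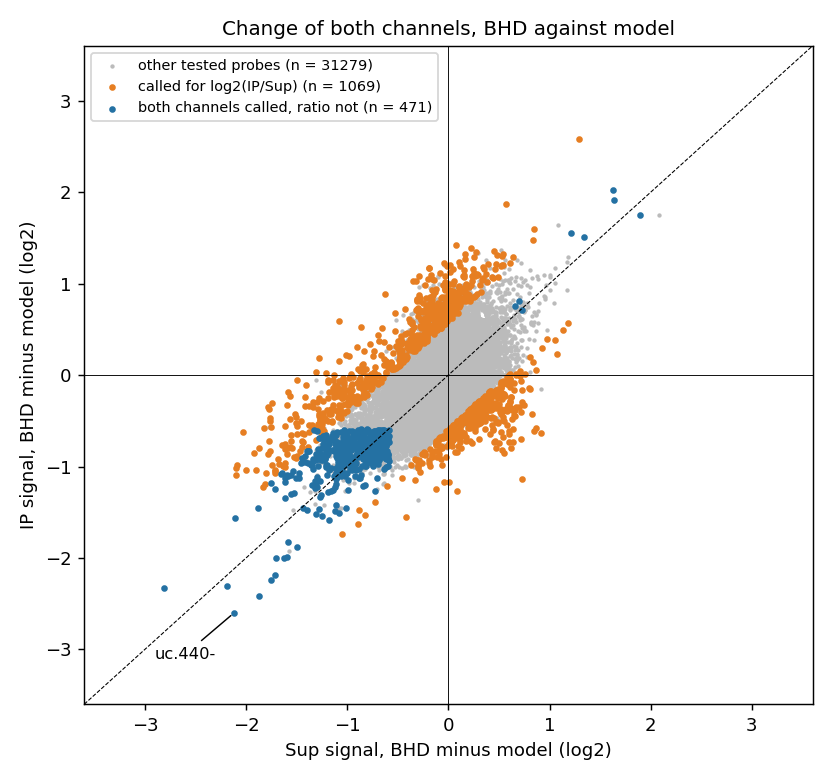
Each point is 1 of the 32819 tested probes, with its difference between BHD and model in log2 Sup signal (x axis) and log2 IP signal (y axis). The dashed line marks equal change. By their choice, the 471 probes with both channels called and no ratio call (blue) lie near it, nearly all in the lower left. Among the farthest of them is uc.440-, and the 1069 ratio calls (orange) lie off the line on both sides.

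The fall was uneven among the BHD arrays. Relative to the mean of the model arrays, the 1077 lower probes had a median total signal of -0.35 on BHD 1, -0.74 on BHD 2 and -1.36 on BHD 3. BHD 3 was the lowest of the 3 in 90.2% of those with all 3 values, against 43.2% of all probes tested. The controls, which the call did not compare, lay at -0.20, 0.01 and 0.08. The medians of all tested probes stayed between -0.02 and 0.03 on every array. Normalization holds the arrays to one distribution, so these medians cannot show whether an array shifted as a whole. For the 463 probes that fell in both channels, the medians on BHD 1, 2 and 3 were -0.45, -0.62 and -1.40 in IP and -0.30, -0.86 and -1.56 in Sup, so the unevenness was in both fractions. These probes were chosen on the same arrays, so the values describe them and test nothing. BHD 3 was the only array with a lower raw median signal in IP, 53, than in Sup, 60. The residual Sup background estimated in background correction was 20.63 on BHD 3 and 1.69 to 7.33 on the other arrays. After correction its median Sup signal, 6.25, was the lowest. The part of slide, background or RNA quality in the low values of BHD 3 was not tested. Slide and sample cannot be told apart for an array alone on its slide.

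**Figure D3:**
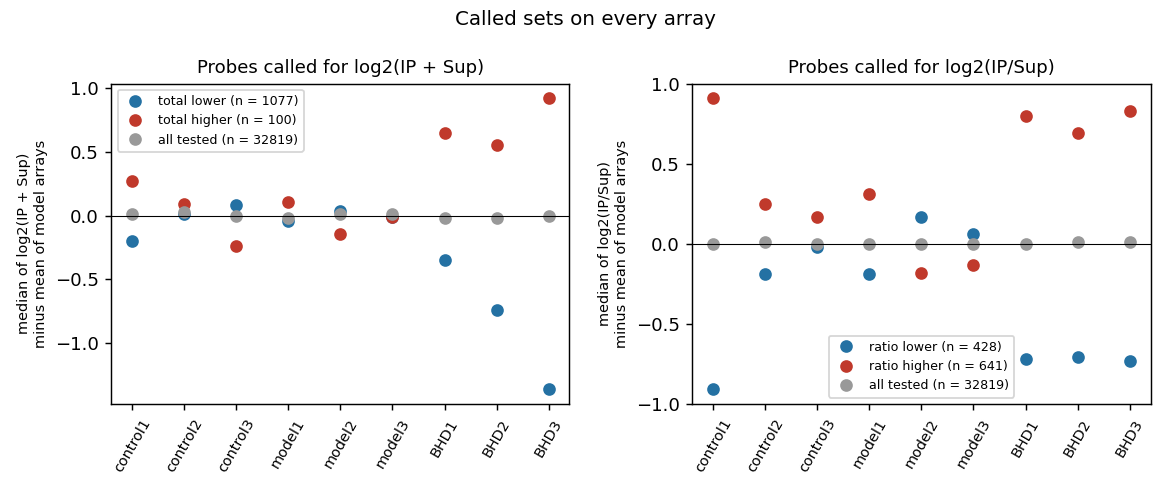
The median over called probes of log2(IP + Sup) (left) and of log2(IP/Sup) (right), each minus the mean of the 3 model arrays, is plotted for each of the 9 arrays, with the median of all 32819 tested probes in grey. The probes lower in total signal lie at -0.35, -0.74 and -1.36 on BHD 1, 2 and 3, while the ratio sets lie at like distances on all 3 BHD arrays and as far on control 1.

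Calls of the ratio overlapped in part with those of the total signal, 225 of the higher and 28 of the lower ratios being called in both. By log2(IP/Sup), 1069 probes (3.26%) were called, 641 higher (1.95%) and 428 lower (1.30%) with BHD. None passed after Benjamini-Hochberg adjustment in limma, where the smallest adjusted p was 0.299, and 5085 probes (15.5%) had an unadjusted limma p under 0.05. In the 641 higher probes the median difference was 0.41 in IP and -0.33 in Sup. These medians pool unlike probes, with 204 called in IP alone, 182 in Sup alone and 1 in both in opposite directions. In the 428 lower probes the medians were -0.46 in IP and 0.30 in Sup. By calls of the single fractions, 304 of the 1069 were called in IP alone, 221 in Sup alone, 50 in both in the same direction, 6 in both in opposite directions and 488 in neither.

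A higher ratio came with less total signal in some probes. Of the 641 probes with a higher ratio, 228 were called lower in Sup and 186 were called lower in total signal, while 207 were called higher in IP. Of the 428 with a lower ratio, 108 were called lower in IP and 44 higher in Sup, and 28 were called in total signal. On BHD 1, 2 and 3 the higher probes stood at medians of 0.80, 0.69 and 0.83 in ratio above the model mean. Control 1 stood at 0.91 and controls 2 and 3 at 0.25 and 0.17, so 1 of 3 controls lay with the BHD arrays and 2 nearer the model. For the lower probes the controls stood at -0.91, -0.19 and -0.02 and the BHD arrays at -0.72, -0.71 and -0.73.

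The balance of higher and lower ratios depended on the scaling, and also on the arrays and the test used. It was 641 against 428 after loess, 1205 against 55 when arrays were only centred on their median, 1148 against 33 with no scaling within arrays, and 1644 against 1795 in the processed signals of the scanner software. Sup calls were 780 against 1986 in the processed signals, and IP calls 674 against 3401 in the deposited table. With local backgrounds as deposited, which on model 2 hold 3 Sup backgrounds over 100 with a highest value of 12585, it was 422 against 446. The IP calls turned as well, to 830 higher and 520 lower with median centring and 853 against 416 with no scaling. The total signal kept its direction, with 145 higher and 1144 lower under median centring and 547 against 2100 in the processed signals. Leaving out model 2 gave 468 ratio calls, 244 higher and 224 lower. Leaving out BHD 3 gave 902, 460 higher and 442 lower, and leaving out model 1 gave 2247, 1524 higher and 723 lower. With the unmoderated test the ratio calls were 278 higher and 402 lower.

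Calls were most frequent among bright probes. The tested probes were divided into 4 equal groups by mean log2 signal, with medians of 6.10, 6.58, 7.55 and 9.95. The total signal was called in 0%, 0.110%, 2.46% and 11.8% of them, and the ratio in 0.0244%, 0.402%, 3.68% and 8.92%. Of the 471 probes that moved in both channels alone, 440 were in the brightest group, 438 of them lower. Ratio calls there were 332 higher and 400 lower, whereas in the third group they were 275 higher and 27 lower. The offset of 50 added in background correction shrinks log2 differences of dim probes, so their low share of calls is no measure of stability.

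**Figure D4:**
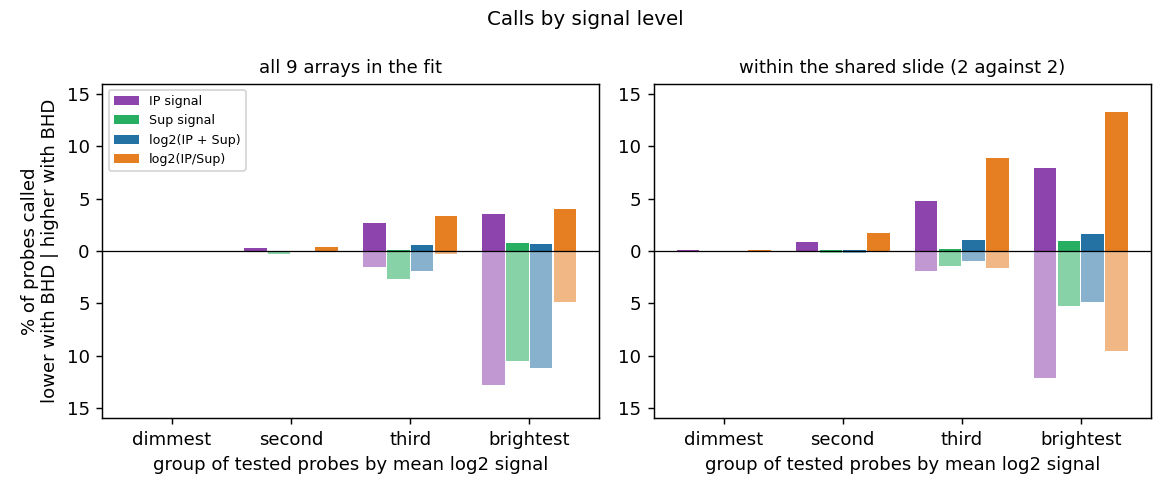
Bars give the percentage of tested probes called higher (upwards) or lower (downwards, paler) with BHD for IP signal, Sup signal, log2(IP + Sup) and log2(IP/Sup) in 4 groups of probes from dimmest to brightest, from the fit of all 9 arrays (left) and from the 4 arrays of the shared slide (right). In the brightest group 11.8% were called for the total signal over all arrays, mostly lower, and within the shared slide 22.8% were called for the ratio.

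What the probe-name classes hold is not given in the sources used here, so they are called by the start of their names. ASRN6AP1A had the largest share of total calls among the classes with over 100 probes tested, 4.67%, with 4 higher and 123 lower. The classes differ in brightness, and in the brightest of the 4 signal groups the order was another, with 25.7% of 202 probes in ASRN6SM, 22.6% of 456 in ASRN6AP1A, 19% of 337 in ASRNV, 17.9% of 39 in uc. and 10.4% of 7147 in ASRN6AP1B. Most of these calls were lower, with 1 higher and 51 lower in ASRN6SM and 49 higher and 691 lower in ASRN6AP1B. Over all signal levels the total was called in ASRN6AP1B in 3.66% (91 higher, 795 lower), in ASRN6SM 3.20% (1 and 63), in ASRNV 2.59% (2 and 86) and in uc. 2.50% (1 and 10). The lower calls outnumbered the higher in each of these 5 classes in every alternative that made calls in it. In ASRN6SM the ratio calls were nearly all in one direction, with 66 higher and 4 lower calls (3.49%) and a median difference of 0.08 over its 2003 tested probes, against 0.01 over all probes. Its Sup signal was called higher in 1 probe and lower in 90, and its IP signal higher in 4 and lower in 45. Higher ratios outnumbered lower ones in ASRN6SM in all alternatives but the adjusted p, which called 0. In ASRN6AP1A, ASRN6AP1B and ASRNV the balance of ratio calls turned in at least 1 alternative, for ASRN6AP1A to 84 higher and 9 lower with median centring. The other classes had 496 and 360 ratio calls in ASRN6AP1B, 38 and 42 in ASRN6AP1A, 36 and 21 in ASRNV, 5 and 1 in uc., and 0 among the 46 tested probes of A_43 and A_44 names.

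Within the slide shared by model 2, model 3, BHD 1 and BHD 2, 31936 probes had all 4 values. There the total signal was called in 670 probes (2.10%), 214 higher (0.67%) and 456 lower (1.43%). The ratio was called in 2704 (8.47%), 1855 higher (5.81%) and 849 lower (2.66%). IP was called in 2128 (6.66%), 3.32% higher and 3.35% lower, and Sup in 623 (1.95%), 0.304% higher and 1.65% lower. Both channels without the ratio were called in 160 probes, 16 higher and 144 lower. So the shared slide held fewer calls of abundance and more of the ratio than all arrays together, and lower abundance outnumbered higher in both. For the uc. probes the shared slide gave 6 total calls, all lower, and 20 ratio calls, 18 of them higher.

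The arrays outside the shared slide, BHD 3 and model 1, gave a reading that the slide's calls had not used. Of the 455 probes lower in total signal within the slide, 79.1% were lower on BHD 3 than on model 1, with a median of -0.96. Over all probes 48.9% were lower. Of the 213 higher probes, 74.2% were higher, with a median of 0.21, against 51.1% of all probes. Of the 1845 probes with a higher ratio within the slide, 41.2% were higher on BHD 3 than on model 1, with a median of -0.07, against 48.4% of all probes. Of the 849 with a lower ratio, 76.8% were lower, with a median of -0.23, against 51.6% of all probes. Thus the direction of abundance recurred in most probes both ways, and that of the ratio recurred in most of the lower probes and in under 50% of the higher ones. BHD 3 and model 1 are 1 array each on different slides, so this is a description without a test. Of the 456 lower calls of total signal within the slide, 360 were in the brightest group of probes. The part of the low values of BHD 3 in this recurrence was not tested.

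Of 959 uc. probes, 440 were tested, and 202 were bright enough to be well above background in each channel of every one of the 6 arrays. For the total signal 11 of the 440 were called (2.50%, against 3.59% of all probes), 10 lower and 1 higher. The higher one was uc.452-. It measured 8.32, 8.63 and 7.89 in the model and 8.79, 9.23 and 9.49 with BHD, a difference of 0.89 (SE 0.33, limma adjusted p = 0.312) that came with a rise of 1.18 in IP. The groups did not overlap, though the gap between model 2 and BHD 1 was narrow. The total was called in 13 of 21 alternatives, and not within the shared slide, at 0.75, or without BHD 3, at 0.73. With replicate number as a block its ratio difference of 0.64 was called.

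After uc.440-, the largest fall of a uc. probe chosen for description was that of uc.448-. Its total signal was 11.74, 11.70 and 11.66 in the model and 11.33, 10.64 and 8.84 with BHD, a difference of -1.43 (SE 0.54). BHD 3 was far below the others, and without it the difference was -0.72, still called. In uc.360- BHD 3 also stood apart, with 10.93, 11.05 and 11.08 in the model and 10.64, 10.64 and 9.23 with BHD, where -0.85 (SE 0.35) became -0.38 without BHD 3 and the call was lost. It was lost also with the replicate block, at -0.85, and within the shared slide, at -0.43. In uc.432+ and uc.371- the total fell by 0.96 (SE 0.28) and fell by 0.95 (SE 0.29), with BHD 3 lowest in both, and within the shared slide uc.371-, at -0.57, was not called.

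For the ratio 6 of the 440 were called (1.36%, against 3.26%), 5 higher and 1 lower, and uc.371- and uc.432+ led the higher ones. The ratio of uc.371- was -1.23, -1.53 and -0.86 in the model and -0.45, -0.24 and -0.17 with BHD, a difference of 0.92 (SE 0.29, limma adjusted p = 0.299). All 3 BHD arrays lay above the model, and its Sup signal fell by 1.29 while IP differed by -0.37. Control 1, at -0.21, lay among the BHD arrays, and controls 2 and 3, at -1.31 and -1.27, among the model arrays. For uc.432+ the ratio difference was 0.73 (SE 0.19), with differences of -1.27 in Sup and -0.55 in IP. In both probes the ratio rose while the total fell. In uc.186- the ratio difference of 0.71 (SE 0.30) came with a total difference of 0.11, but it was called in 8 of 20 alternatives. The 1 uc. probe called lower in ratio was uc.362-, at 1.03, 1.08 and 0.72 in the model and 0.40, 0.33 and 0.00 with BHD. The groups did not overlap, and its difference of -0.70 (SE 0.16) came with an IP difference of -0.86 and a Sup difference of -0.16. Within the shared slide it was -0.53 and not called. Control 1 stood apart from controls 2 and 3 in the ratio of these probes as well. It was at -0.39 against -1.19 and -0.80 in uc.432+, 0.90 against 0.11 and 0.10 in uc.186-, and 0.26 against 0.71 and 0.66 in uc.362-.

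Of the 50 probes with 10 spots each, 30 carried an accession that the rat RefSeq table names, 29 of mRNAs and 1 of a noncoding RNA, and 28 were tested. In total signal 1 was called, higher, and 24 of the 28 differences were above 0, with a median of 0.18 against -0.01 over all probes. In 8 of the 28 (28.6%) the model and BHD arrays did not overlap, against 24.0% of all probes with 6 values. For the ratio it was 8 of 28 against 22.2%, in Sup 17.9% against 19%, and in IP 10 of 28 (35.7%) against 25.7%, with 2 called higher in IP. None was called for the ratio by limma, where the lowest adjusted p was 0.299 and differences ran from -0.41 to 0.63. Normalization holds the arrays to one distribution, so these differences are relative to the bulk of the probes.

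Slc28a2, a sodium-dependent nucleoside transporter that takes up purine nucleosides such as adenosine, was the called one. Its total signal was 9.08, 9.16 and 9.04 in the model, 9.94, 9.48 and 9.99 with BHD and 8.66, 8.45 and 8.83 in the controls. All BHD arrays lay above all model arrays, which lay above all controls. The total rose by 0.71 on the log2 scale (SE 0.15), 1.63-fold, with an adjusted limma p of 0.289, and it was called in 19 of 20 alternatives. IP rose by 0.71 and Sup by 0.73, and the ratio differed by -0.02. That ratio difference was 0.24 within the shared slide and -0.52 between BHD 3 and model 1.

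Ppp2r2b, a brain-enriched regulatory subunit of protein phosphatase PP2A, moved in the IP fraction. Its IP signal was 10.14, 9.49 and 9.18 in the model and 10.61, 10.45 and 10.25 with BHD, and rose by 0.83 (SE 0.35, limma adjusted p = 0.288). The groups did not overlap, but the controls spanned both, at 11.01, 10.54 and 9.71. The ratio difference of 0.63 (SE 0.36) was not called over all arrays. With replicate number as a block both the ratio and the total difference, 0.63 each, were called. Within the shared slide the ratio differed by 1.00, and between BHD 3 and model 1 by -0.12.

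Among the neuronal and synaptic genes, 4 of a list of 10 were on the array by name, and none was called in total signal or ratio. Map2, which binds dendritic microtubules, differed by -0.36 in total signal (SE 0.18), and Dlg4, the postsynaptic scaffold PSD-95, by -0.06 (SE 0.24). Cdh2, the adhesion protein N-cadherin, differed by 0.36 (SE 0.15), and its arrays overlapped. Of the growth factors Fgf2 was tested. Its total signal was 8.95, 9.27 and 9.29 in the model and 9.47, 9.43 and 9.90 with BHD, without overlap. The difference of 0.43 (SE 0.15) missed the fold threshold. It was 0.17 within the shared slide and 0.95 between BHD 3 and model 1. Gdnf, which supports neurons, and Lhcgr, a gonadotropin receptor, were not tested for lack of signal.

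Ldha, the lactate dehydrogenase subunit of anaerobic glycolysis, had the lowest ratio difference. Its ratio was -1.53, -1.33 and -1.33 in the model and -1.92, -1.87 and -1.64 with BHD. The groups did not overlap, and the difference of -0.41 (SE 0.14) missed the fold threshold. It was -0.16 for Ldha with median centring and -0.13 with no normalization within arrays. Of the RNA binding and translation list, 3 of 6 were found. Magoh, a core protein of the exon junction complex, differed in ratio by -0.31 (SE 0.10) without overlap and in total by 0.04, and its ratio difference was -0.12 and -0.09 under the same changes of scaling. Eif4b, a translation initiation factor, and Mex3c, an RNA-binding ubiquitin ligase, differed in ratio by -0.07 and 0.06. Ndfip1, an adaptor of Nedd4 ubiquitin ligases, and Pop7, a protein of RNase P, also differed in ratio without overlap, by -0.31 (SE 0.09) and -0.35 (SE 0.11), but with no normalization within arrays their signs turned, to 0.03 and 0.01. Enpp1, which hydrolyses extracellular nucleotides, Napepld, which makes N-acylethanolamines, the kinase Ptk2b and the pyruvate dehydrogenase kinase Pdk3 differed in ratio without overlap by 0.19, 0.14, 0.30 and 0.15, and that of Pdk3 turned to -0.02 with local backgrounds as deposited. Nlrp3, the inflammasome sensor, differed by 0.20 in total signal (SE 0.17), but its Sup channel was well above background on 1 of 6 arrays. None of 16 genes of the m6A machinery was among the named probes, and of the cell type markers 2 neuronal ones were, so the labelled tissue was not checked by them.

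**Figure D5:**
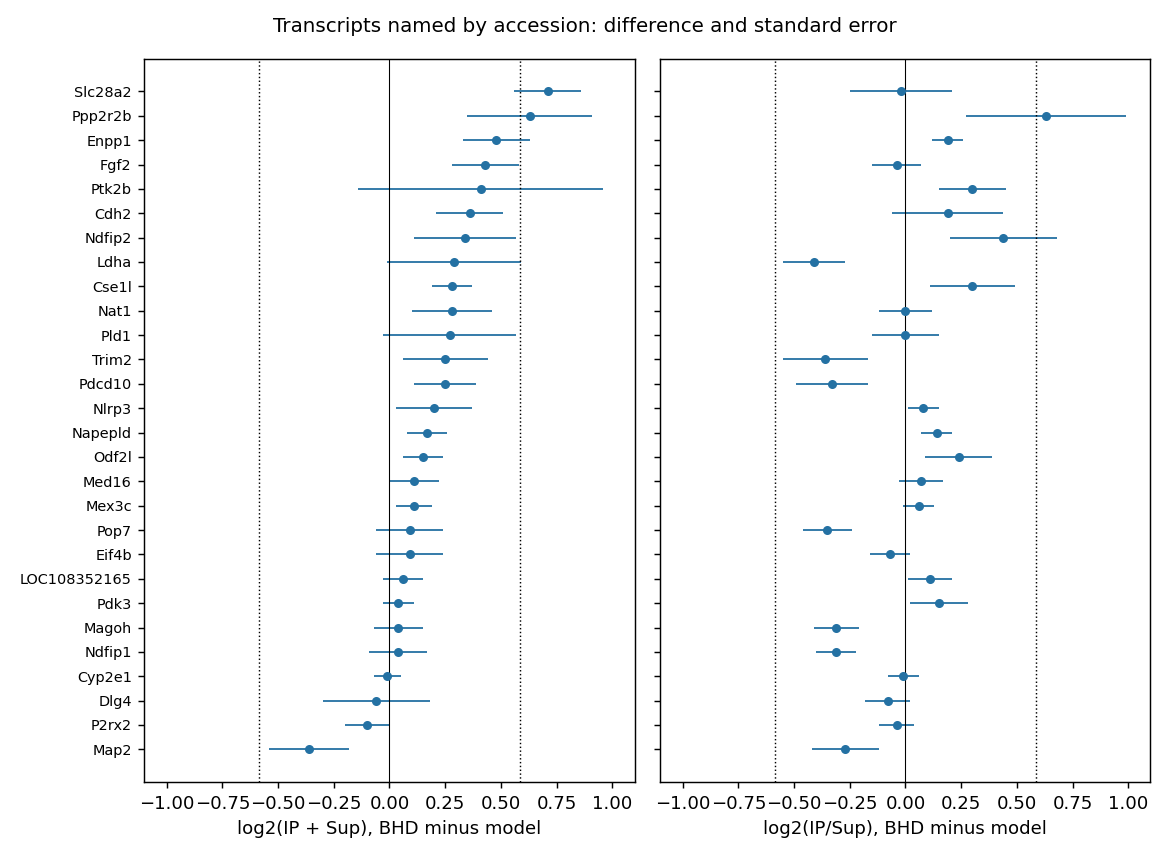
Points give the difference between BHD and model in log2(IP + Sup) (left) and in log2(IP/Sup) (right), with the limma standard error as bars, for the 28 tested transcripts named by accession, and dotted lines mark a 1.5-fold change. Of the total differences 24 lie above 0 and that of Slc28a2, at 0.71, is the largest, while the ratio differences run from -0.41 for Ldha to 0.63 for Ppp2r2b.

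Among probes that no table names, those with the largest changes showed both patterns. ASRN6AP1B10310190911 fell in total signal from 11.95, 11.50 and 11.51 in the model to 9.95, 9.63 and 8.59 with BHD, a difference of -2.26 (SE 0.34, limma adjusted p = 0.207), with -2.30 in IP and -2.19 in Sup. ASRN6AP1B10003734211 rose in total signal by 2.37 (SE 0.90), with model arrays spread over 9.39, 11.38 and 8.17 and BHD arrays at 11.96, 11.78 and 12.32. Its ratio was called too, at 1.29 (SE 0.50), with IP 2.58 and Sup 1.29 higher, so it is no change of abundance alone. Its total was called in 11 of 21 alternatives, and not with the replicate block or within the shared slide, at 2.09. The groups did not overlap in either probe, and in the second the model arrays spread wider than the difference. In ASRN6AP1B10004998311 the ratio went from 1.39, 2.07 and 2.12 in the model to 0.17, -0.05 and -0.12 with BHD, a difference of -1.86 (SE 0.55). With no normalization within arrays this difference shrank to -0.96, and it was called in 19 of 20 alternatives. IP fell by 1.13 while Sup differed by 0.73. The ratio of control 1, -0.60, lay below the BHD arrays while controls 2 and 3 lay at 1.62 and 1.78. ASRN6AP1B10001267711 had the largest rise of the ratio, 1.67 (SE 0.73), which was 2.48 within the shared slide and 0.06 between BHD 3 and model 1, and was called in 12 of 20 alternatives.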

How the data were processed

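Cortex RNA, split by an m6A antibody, was hybridized to 9 Agilent arrays of 2 colours. The authors deposited spot intensities from Agilent Feature Extraction 11.0.1.1 (per the file headers) and a table of log2 signals per channel, which per the methods the authors normalized in GeneSpring and which is used here as an alternative. Median intensities were background-corrected with normexp (offset 50). Local backgrounds that the scanner software had marked as outliers were replaced by the array's median background, because on model 2 a few extreme Sup values had shifted the fit. Control and outlier spots were left out, arrays were loess-normalized, repeated spots were averaged, and IP and Sup were Aquantile-normalized. A probe was tested when on 3 of the 6 arrays 1 channel or both stood well above background and each group had 2 values. limma 3.58.1 in R 4.3.3 was fitted to all 9 arrays with the contrast BHD minus model. The fit was tested on simulated data with independent noise on each array and no slide effect. That test checks the computation and cannot bear on the calls. Figures were drawn with matplotlib 3.10.9. The number of arrays limits the precision, and p-values measure the spread between arrays labelled as biological replicates. Slides were inferred from scan times.

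The named probes were uc.440- and uc.77- with their opposite strands, every probe named through its accession by the RefSeq table of assembly GRCr8, the uc. probes called without overlap, with both channels well above background on each of the 6 arrays (at most 5 per measure and direction), and the unnamed probe with the largest rise and fall. The members and lists were chosen with earlier results of these data known. Same-numbered model and BHD arrays deviated together in the ratio (r of 0.576, 0.263 and 0.418) and in Sup (0.237, 0.349 and 0.336). In IP (-0.0062, 0.455 and 0.196) and total signal (-0.0295, 0.434 and 0.263) number 1 did not. The main fit did not pair the arrays. An alternative, the replicate block, took the replicate number as a block, on the basis of the data alone.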

Additional observations from a re-analysis of the deposited data

How the results depend on the processing

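Calls of the ratio, IP, Sup, the total signal and both channels without the ratio were recomputed under 15 alternatives and with each of 6 arrays left out. The processed signals gave 3439, 4395, 2766, 2647 and 870 calls in that order, and the deposited table, in which the median of all probes shifts by -0.19 in IP, Sup and total, gave 2865, 4075, 3209, 3359 and 1095. With adjusted p they were 0, 1, 3, 6 and 0, and with the unmoderated test 680, 924, 438, 486 and 105. With slide as a block the ratio gave 2496, Sup 558, total 614 and both channels 175, and within the shared slide they were 2704, 623, 670 and 160. Both-channel calls were 218 with median centring, 195 with no normalization within arrays and 268 with channels centred on their medians. With the replicate block the ratio gave 1541 (1078 higher, 463 lower), IP 1882, Sup 1222, total 1192 and both channels 451, and the only named calls it changed are those given with the results and the total of ASRN6AP1B10003734211, which lost its call. Leaving out single arrays gave 468 to 2247 ratio calls, 874 to 2440 IP calls, 608 to 2154 Sup calls, 530 to 2010 total calls and 157 to 994 both-channel calls. No called value of a named probe changed sign in any alternative, while 72 ratio, 37 total and 2 Sup values that were not called did. The replacement of marked local backgrounds in the main fit was chosen after seeing the data. So were the alternative with backgrounds as deposited and channel centring for the named and uc. probes. Signal over background limits the calls of dim probes.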
